A study of Homo sapiens with 3 samples.

Results

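Hyaluronan is a long sugar chain of the pericellular matrix. It is made at the cell surface by the hyaluronan synthases from UDP-glucuronic acid and UDP-N-acetylglucosamine, it is bound by the receptor CD44, and it is organised by secreted partners such as versican and the protein encoded by TNFAIP6. In the bone marrow, stromal cells are a main source of this matrix, and plasma cells can attach to it through CD44. The 5 genes described here are HAS2 and HAS3, which encode hyaluronan synthases, CD44, TNFAIP6, which encodes TSG-6, an enzyme-like protein that transfers heavy chains onto hyaluronan, and VCAN, which encodes versican. They were taken by symbol from 43913 gene symbols in the counts. They were chosen with the low HAS2 level of cocultured HS-5 cells already known, so the HAS2 values of that comparison are a description.

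RNA was counted by Drop-seq, which isolates single cells with barcoded beads in droplets and counts each captured RNA molecule as a unique molecular identifier (UMI). There were 3 libraries, 1 per condition. The first held MM.1S, an established myeloma plasma cell line grown alone, the second HS-5, a virally immortalised stromal cell line from bone marrow grown alone, and the third both lines after 4 h of coculture. No treatment was labelled in any library, each line stands for 1 donor, and the medium of the sequenced coculture is not given in the sources used here, while the lines were otherwise kept in different media, so medium and coculture cannot be told apart.

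The libraries held 3865 to 3994 barcodes and 3981392 to 10433182 UMIs, and only barcodes with 200 or more detected genes entered the sums. Coculture cells were assigned to a line by 82 MM.1S and 230 HS-5 genes that differ at least 50-fold between the monocultures, with the 5 genes left out of this set. This gave 1642 MM.1S and 2106 HS-5 cells in coculture, against 3947 and 3732 in monoculture, and 108 cells were set aside as mixed because HS-5 genes supplied between 0.2 and 0.8 of their line-specific UMIs. None of the 3947 MM.1S and 3732 HS-5 monoculture cells was placed in the other line or among the mixed cells, which the choice of these genes on the same cells largely fixes. Median depth was alike for HS-5, 971.5 UMIs alone and 957 in coculture, but mean depth was higher alone. HS-5 sums were 6142273 UMIs in 3732 monoculture cells and 2481883 UMIs in 2106 coculture cells. For MM.1S the median depth was 2201 UMIs alone and 669 in coculture, so MM.1S comparisons across cultures also compare depths. Most marker genes separated the lines, with MZB1 at 2526 counts per 1000000 UMIs (CPM) in MM.1S and 0.163 CPM in HS-5 monoculture. SDC1, listed as an MM.1S marker, went the other way in monoculture, at 38.1 CPM in MM.1S and 135 CPM in HS-5. In coculture SDC1 stood at 124 CPM in MM.1S and 126 CPM in HS-5 cells. CD79A was at or near 0 in MM.1S, and LUM and COL3A1 stayed under 5 CPM in HS-5. FN1 had more CPM in MM.1S cells than in the stromal line. Among markers of T cells, macrophages, endothelium, epithelium and erythroid cells, the highest outside EPCAM (72.6 to 77.6 CPM in MM.1S) was 5.64 CPM. Barcodes shared between libraries numbered 39 to 76 per pair.

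Levels are the CPM of all UMIs of a line in a culture, with exact 95% Poisson intervals. Ratios are coculture CPM over monoculture CPM with an exact conditional 95% interval, and log2 ratios carry a pseudocount of 1 CPM. With 1 library per condition there is no replicate check, no test was made, and all intervals cover counting error only. A gene was called where its 2 levels averaged at least 10 CPM and differed at least 2-fold. In HS-5 cells, 4 of the 5 genes reached that level. HAS2 was called lower, the contrast by which it was chosen, where 2.12% of 8815 genes were called lower, and none of the 4 was called higher, where 1.42% of genes were. In MM.1S cells only CD44 reached the level and it was called higher, as were 19.9% of 7838 genes, while 6.19% were called lower. The MM.1S call therefore stands against a high background.

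**Figure D1:**
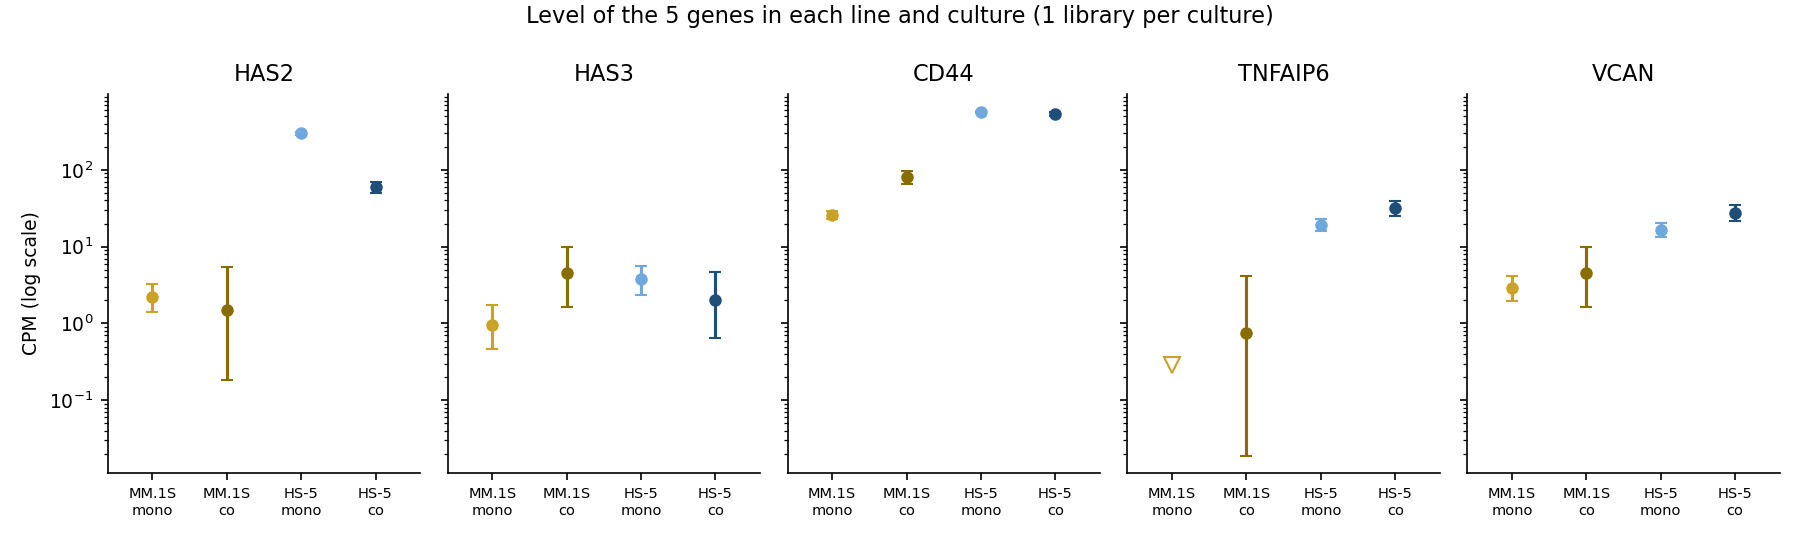
Level in CPM (log axis) of each of the 5 genes in MM.1S and HS-5 cells in monoculture (mono) and coculture (co), 1 library per culture, with exact 95% Poisson intervals. The open triangle marks a count of 0 and is drawn at the CPM worth 3 UMIs. HAS2 stood at 301 CPM in HS-5 monoculture and at 59.6 CPM in coculture, and CD44 in MM.1S cells at 25.8 and 80.6 CPM.

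HAS2, the synthase that makes long hyaluronan chains, was a gene of the stromal line. The gene lies on chromosome 8 from 121612116 to 121641390 on the minus strand (GRCh38, GENCODE release 29). HS-5 monoculture cells held 1846 HAS2 UMIs, or 301 CPM (287 to 315), and HS-5 cells in coculture 148 UMIs, or 59.6 CPM (50.4 to 70.1). MM.1S cells held 23 UMIs (2.20 CPM) in monoculture and 2 UMIs (1.51 CPM) in coculture. The HS-5 level in coculture was 0.198 of that in monoculture (0.167 to 0.235), a log2 ratio of -2.31, while the median over 8815 genes was -0.04 and 7 genes were lower than HAS2. In monoculture the HS-5 level was 136 times that of MM.1S (90.6 to 216), so HAS2 itself would have met the 50-fold limit for line-specific genes. HAS2 and CD44 were the 2 of the 5 genes that averaged 10 CPM between the monocultures, and both were called higher in HS-5, as were 39.0% of 8734 genes, with 15.8% called lower.

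At equal depth a HAS2 UMI was detected in fewer HS-5 cells in coculture, and fewer cells had 2 or more. Detection at this depth follows the level, so neither is a separate result. With every cell thinned to 500 UMIs, which left out 217 shallower HS-5 cells of the monoculture and 300 of the coculture, a HAS2 UMI was found in 392 of 3515 monoculture cells (11.2%, exact Clopper-Pearson 95% interval 10.1 to 12.2%) and in 58 of 1806 coculture cells (3.21%, 2.45 to 4.13%). In MM.1S cells of the coculture, which share their library with HS-5 RNA, the share was 0.0835% (1 of 1197, 0.00212 to 0.465%), below the HS-5 share of that library. The MM.1S monoculture, a library without HS-5 cells, had 0.0253% (1 of 3947). At least 2 HAS2 UMIs were found in 72 HS-5 monoculture cells (2.05%) and 4 coculture cells (0.221%). At least 3 were found in 12 monoculture cells and in 0 of 1806 coculture cells, where 3 cells would be 0.166%.

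Before thinning, the highest count in 1 cell was 24 UMIs in monoculture and 4 in coculture, where the mean depth was lower. The 38 HS-5 monoculture cells with the most HAS2 UMIs, about 1% of the cells, held 18.3% of the HAS2 UMIs, and the top 22 of the coculture cells held 32.4% of theirs (48 of 148 UMIs). Without the top 1% of cells in each culture the log2 ratio was -2.63. These cells held the larger part of the UMIs in coculture, so leaving them out lowers the ratio by itself. The ratio was 0.216 among HS-5 cells of 200 to under 700 UMIs, 0.275 (0.210 to 0.356) among cells of 700 to under 1500 UMIs and 0.156 (0.118 to 0.203) among deeper cells. HAS2 was thus lower in coculture in each depth range, though the last has no upper limit and depths within it can differ.

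**Figure D2:**
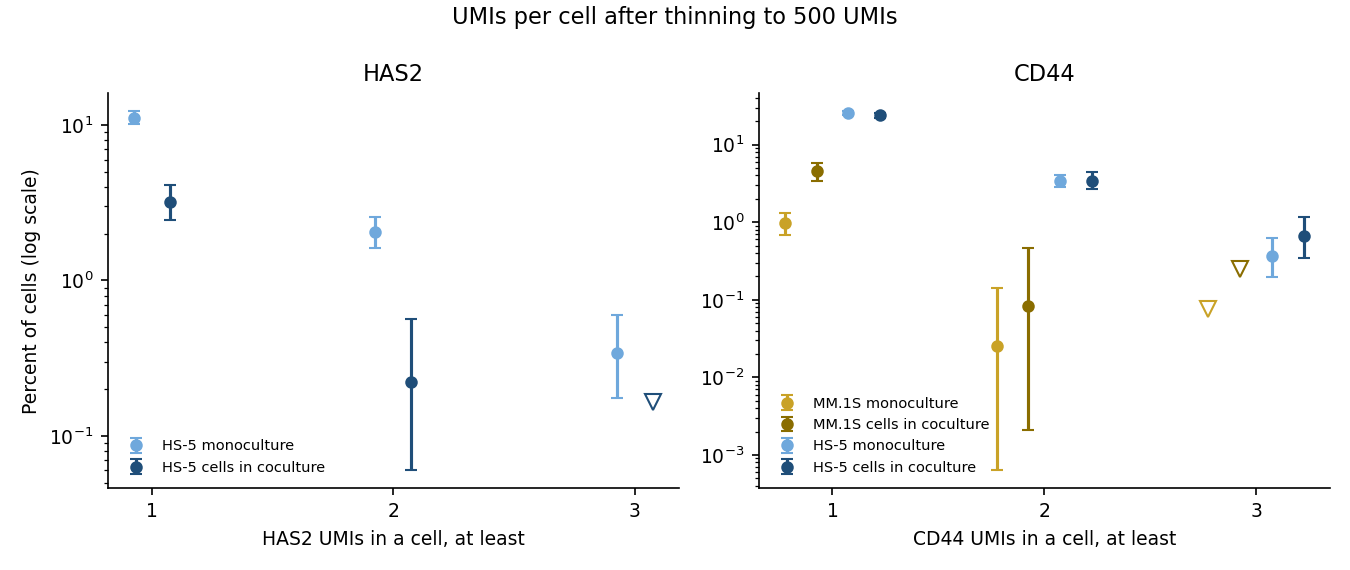
Percent of cells (log axis) with at least 1, 2 or 3 UMIs of HAS2 (left, HS-5 cells) or CD44 (right, both lines) after each cell was thinned to 500 UMIs, with exact 95% Clopper-Pearson intervals. Open triangles mark counts of 0, drawn at the share that 3 cells would give. For HAS2 the HS-5 monoculture points lie above the coculture points at each count, and for CD44 the HS-5 points of both cultures lie close together.

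The lower HAS2 level was seen in each of the HS-5 cell groups examined. Cells were split by the UMIs of a G2/M list, a fibrillar matrix list and a cytokine list after thinning, with the limit set so that at most 25% of monoculture cells were high. The HAS2 ratio lay between 0.197 and 0.224 in all 6 groups of cells. Within monoculture, cells high in fibrillar matrix genes had less HAS2, 187 CPM (128 UMIs in 480 cells), than the remaining 3035 cells, 316 CPM, but 684 monoculture cells lay within 1 UMI of that limit. High and other cells differed little in HAS2 by G2/M score (302 and 301 CPM) and by cytokine score (308 and 299 CPM) in monoculture. The G2/M list itself summed to 8587 CPM in HS-5 monoculture and 6256 CPM in coculture, and 22.6% of monoculture cells but 11.5% of coculture cells were high in it; the HAS2 ratio was 0.224 in high and 0.197 in other cells.

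HAS2-AS1, an antisense RNA gene that overlaps HAS2 (chromosome 8, 121639293 to 121993876, plus strand), had 40 UMIs in HS-5 monoculture and 6 in coculture, a ratio of 0.371 (0.129 to 0.881). The strand setting of the counting is not given in the sources used here, so reads of the 2 genes cannot be told apart where they overlap. HAS1, the remaining synthase gene, had between 0 and 2 UMIs in each of the 4 groups of cells.

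In MM.1S monoculture, 16 of the 23 HAS2 UMIs lay in 2 cells with 9 and 7 UMIs. These cells carried 514 and 433 UMIs of MM.1S-specific genes and 3 and 1 of HS-5-specific genes, so by those genes they were MM.1S cells. The other 7 UMIs lay in 7 of 3945 cells, a level of 0.672 CPM (0.270 to 1.38).

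HAS3, the synthase that makes shorter chains, was near the detection limit in both lines. The gene lies on chromosome 16 from 69105564 to 69118719 on the plus strand. It had 10 UMIs in MM.1S monoculture (0.958 CPM), 6 in MM.1S cells in coculture (4.52 CPM), 23 in HS-5 monoculture (3.74 CPM) and 5 in HS-5 cells in coculture (2.01 CPM). The HS-5 ratio was 0.538 (0.160 to 1.45), an interval that includes 1. The MM.1S ratio was 4.71 (1.41 to 14.3), and 3 of its 6 coculture UMIs came from a single cell. HAS3 never reached a mean of 10 CPM and was not called in either line.

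CD44, the main hyaluronan receptor, was the member with the most UMIs. The gene lies on chromosome 11 from 35138870 to 35232402 on the plus strand. HS-5 cells held 571 CPM in monoculture (552 to 590, 3506 UMIs) and 535 CPM in coculture (507 to 565, 1329 UMIs), a ratio of 0.938 (0.880 to 1.00) and a log2 ratio of -0.09. MM.1S cells held 25.8 CPM in monoculture (22.8 to 29.1, 269 UMIs) and 80.6 CPM in coculture (66.0 to 97.4, 107 UMIs), a ratio of 3.13 (2.47 to 3.92) and a log2 ratio of 1.61. CD44 was thus nearly level in the stromal line and higher in cocultured myeloma cells. Of the genes with a mean of 10 CPM in MM.1S cells, 6.47% had a higher log2 ratio than CD44, and the median gene had 0.24. The distance between the lines was 22.1-fold in monoculture (19.6 to 25.2) and 6.65-fold in coculture (5.45 to 8.17).

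A CD44 UMI was also found in more MM.1S cells of the coculture at equal depth. With cells thinned to 500 UMIs, which left out 445 of the 1642 MM.1S coculture cells and none of those in monoculture, 38 of 3947 MM.1S monoculture cells (0.963%, 0.682 to 1.32%) and 54 of 1197 coculture cells (4.51%, 3.41 to 5.85%) had one. Without thinning the shares were 6.03% and 6.09%, at a median depth of 2201 and 669 UMIs. One cell in each culture had 2 or more thinned CD44 UMIs. In HS-5 cells the thinned shares were 25.3% in monoculture and 23.8% in coculture (21.9 to 25.8%), and 3.39% and 3.43% had at least 2 UMIs.

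RNA of HS-5 cells carried over into droplets was measured beside the MM.1S value. From the HS-5-specific genes, 1.72% of the UMIs of MM.1S coculture cells came from HS-5 RNA, which accounts for 9.22 of the 80.6 CPM of CD44. After its subtraction and rescaling to the remaining UMIs CD44 stood at 72.6 CPM, a ratio of 2.82. Among the 698 MM.1S coculture cells in which HS-5 genes supplied under 0.02 of the line-specific UMIs, CD44 stood at 97.0 CPM (73.3 to 126), and in the bins up to 0.05, 0.1 and 0.2 it stood at 67.8, 58.4 and 92.1 CPM. These bins held 56, 28, 14 and 9 CD44 UMIs and their intervals overlap, and a trend with the HS-5 share was not tested. By depth the ratio was 4.78 (2.80 to 8.52) among cells of 700 to under 1500 UMIs, but 1.54 (0.759 to 2.80, 11 coculture UMIs) among cells of at least 1500 UMIs, which make up 3127 of the MM.1S monoculture cells and 130 of those in coculture. The part of depth in the CD44 difference was not tested beyond these values.

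**Figure D3:**
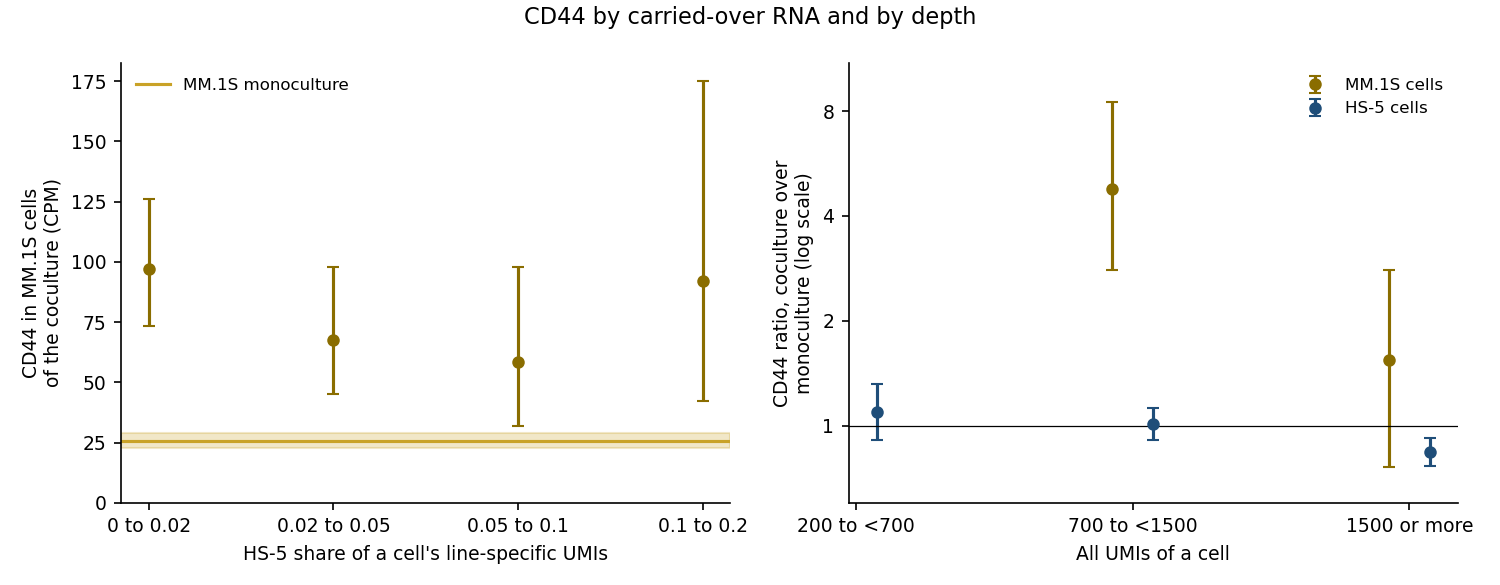
Left, CD44 level in CPM of MM.1S coculture cells grouped by how much of their line-specific UMIs came from HS-5 genes (as a share), with the MM.1S monoculture level as a line and its 95% Poisson interval as a band. Right, ratio of CD44 in coculture over monoculture (log axis) in cells grouped by all their UMIs, with exact 95% intervals. No ratio is shown for MM.1S cells of 200 to under 700 UMIs, where the monoculture had 1 cell. All 4 groups on the left lie above the monoculture band, and the MM.1S ratio on the right is 4.78 and then 1.54.

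TNFAIP6, which encodes the matrix protein TSG-6 and is known as a gene induced by inflammatory cytokines, was at or near 0 in MM.1S cells. The gene lies on chromosome 2 from 151357592 to 151380048 on the plus strand. HS-5 cells held 119 UMIs in monoculture (19.4 CPM, 16.0 to 23.2) and 79 UMIs in coculture (31.8 CPM, 25.2 to 39.7), a ratio of 1.64 (1.22 to 2.20). MM.1S cells held 0 UMIs in monoculture and 1 in coculture, where the carried-over HS-5 RNA would give 0.548 CPM against 0.753 CPM measured. The HS-5 level in monoculture was at least 67.4-fold higher than in MM.1S with 3 UMIs in place of 0. The thinned share of HS-5 cells with a TNFAIP6 UMI was 0.797% (28 of 3515, 0.530 to 1.15%) in monoculture and 1.55% (28 of 1806, 1.03 to 2.23%) in coculture. TNFAIP6 was higher in coculture without reaching 2-fold, and 5.24% of genes in HS-5 cells had a higher log2 ratio.

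The 250 bases before the TNFAIP6 start in RefSeq (GRCh38.p14, chr2:151357342-151357591, plus strand) are shown because of all motifs searched only an AP-1 motif was found, and only in this gene. The capitals mark the match to TGANTCA.

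TNFAIP6: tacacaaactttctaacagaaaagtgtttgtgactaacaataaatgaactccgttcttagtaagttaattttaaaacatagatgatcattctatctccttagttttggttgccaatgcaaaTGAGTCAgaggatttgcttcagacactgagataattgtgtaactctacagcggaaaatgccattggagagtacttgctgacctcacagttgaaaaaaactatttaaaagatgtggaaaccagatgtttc

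The match begins 129 bases before the start. On both strands of 27305 RefSeq windows of the same length, 6.60% held TGANTCA, 6.78% held the STAT-type motif TTCNNNGAA, 11.1% held TATAAA and 5.05% held an NF-κB motif. A promoter was found for 4 of the 5 genes, and the windows of HAS3, CD44 and VCAN held none of the 4 motifs. The windows of CD44 and VCAN lie wholly in exons of longer GENCODE transcripts and are not shown. A match is a description of the letters in this window, and no binding was measured.

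TNFAIP6 had a larger ratio in the high than in the other HS-5 cells in all 3 splits by cell state. In cells high in matrix genes TNFAIP6 was 27.7 CPM in monoculture (19 UMIs) and 73.9 CPM in coculture (26 UMIs), a ratio of 2.67 (1.42 to 5.10), against a ratio of 1.30 (0.898 to 1.85) in the other cells. In cells high in cytokine genes it was 25.8 and 59.2 CPM, a ratio of 2.30 (1.29 to 4.03), against 1.45 (1.01 to 2.08) in the other cells. In cells high in G2/M genes the ratio was 2.05 (0.857 to 4.59), against 1.53 (1.10 to 2.12) in the other cells. The intervals of high and other cells overlap, and the difference between them was not tested. No TNFAIP6 UMI was found in the 392 thinned monoculture cells with a HAS2 UMI, where 3 cells would be 0.765%, against 28 of 3123 cells without one (0.897%), so at this depth the shares could not be told apart.

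**Figure D4:**
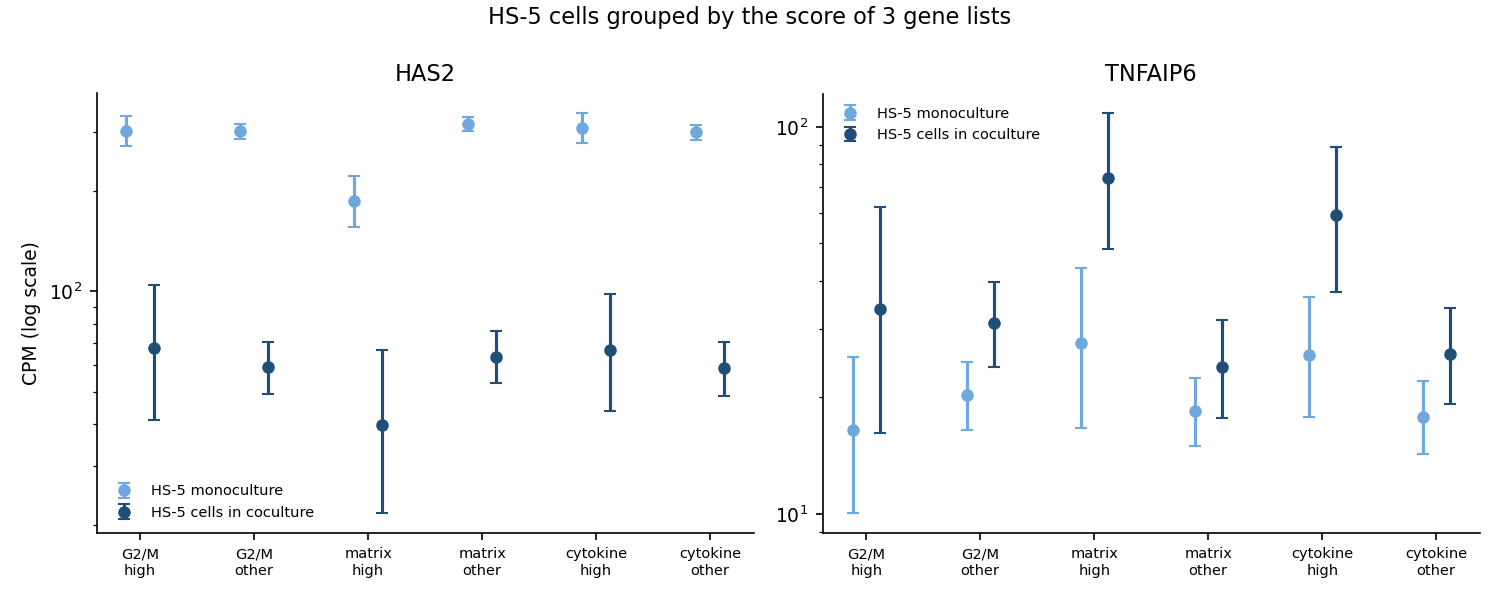
Level in CPM (log axis) of HAS2 (left) and TNFAIP6 (right) in HS-5 cells of monoculture and coculture, grouped as high or other by the summed UMIs of G2/M, fibrillar matrix (matrix) and cytokine genes, with exact 95% Poisson intervals. HAS2 is lower in coculture in each of the 6 groups, and TNFAIP6 in cells high in matrix genes is 27.7 CPM in monoculture and 73.9 CPM in coculture.

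VCAN, which encodes the large proteoglycan that binds hyaluronan and spaces the matrix, showed a similar size of difference in HS-5 cells. The gene lies on chromosome 5 from 83471465 to 83582303 on the plus strand. HS-5 cells held 102 UMIs in monoculture (16.6 CPM, 13.5 to 20.2) and 69 UMIs in coculture (27.8 CPM, 21.6 to 35.2), a ratio of 1.67 (1.22 to 2.29), and the thinned shares were 0.825% and 1.33%. MM.1S cells held 30 UMIs in monoculture (2.88 CPM) and 6 in coculture (4.52 CPM), a ratio of 1.57 (0.535 to 3.84). In HS-5 cells 4.76% of genes had a higher log2 ratio than VCAN, and the VCAN difference did not reach 2-fold. The VCAN ratio was lowest, 1.599, in cells not high in G2/M genes and highest, 1.76, in cells high in them among the 6 cell state groups, with intervals that include 1 in the 3 groups of high cells. VCAN-AS1 had 0 UMIs in all 4 groups of cells.

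**Figure D5:**
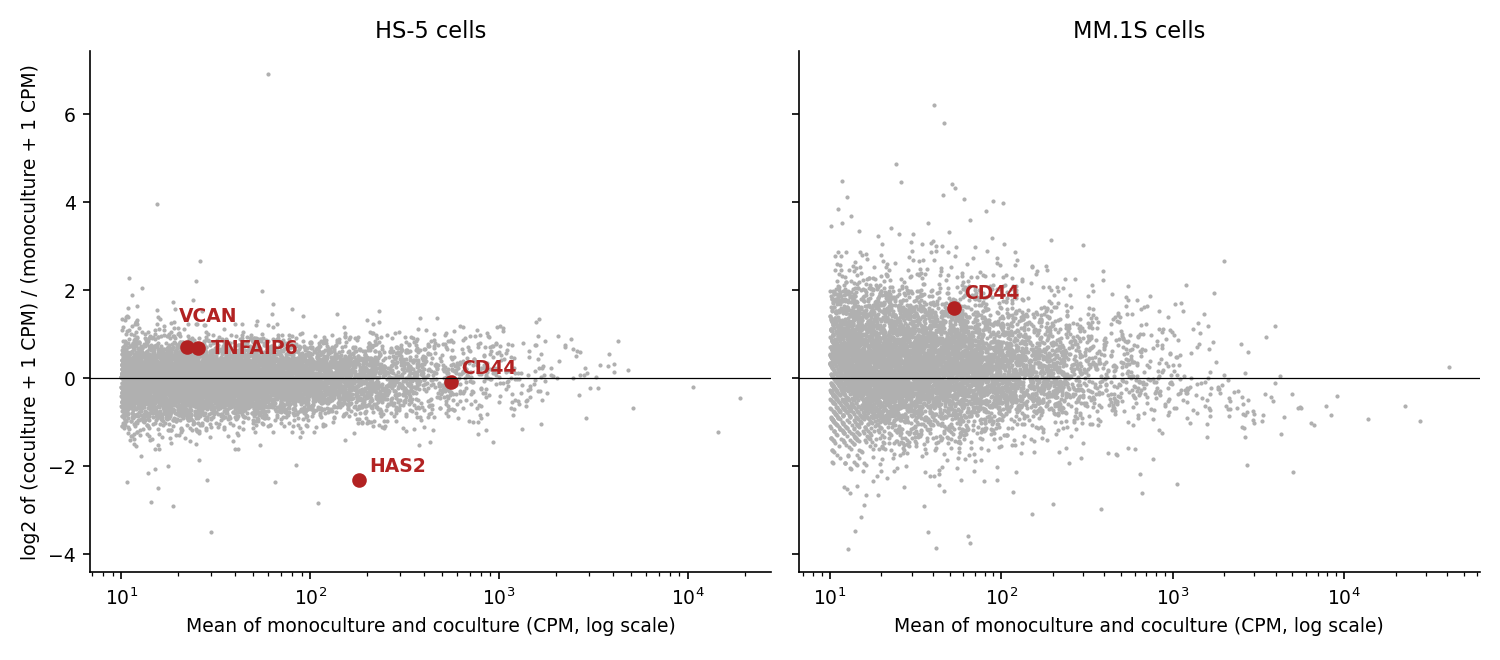
Log2 ratio of coculture over monoculture (pseudocount of 1 CPM) against the mean level of the 2 cultures in CPM (log axis) for each gene with a mean of at least 10 CPM, in HS-5 cells (left) and MM.1S cells (right). Red points mark those of the 5 genes that reach this level. HAS2 lies at -2.31 among HS-5 genes, where 7 genes lie lower, and CD44 at 1.61 among the more widely spread MM.1S genes.

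The other genes of the hyaluronan pathway were entered as 64 symbols in 6 lists, of which 61 are in the counts. CEMIP2 and TMEM2 on these lists name the same gene, which the counts hold as TMEM2. Of the 35 with a mean of 10 CPM in HS-5 cells, 2 were called higher and 0 lower, beside 1.42% and 2.12% of all genes. The interval of the ratio lay above 1 for 5 of the 35 and below 1 for 13, with a median log2 ratio of -0.04, and the median over all genes was also -0.04. The enzymes that make the UDP-sugars all reached 10 CPM. GFPT2, a rate-limiting enzyme of the hexosamine pathway, was called higher, 8.79 CPM in monoculture and 22.2 CPM in coculture (ratio 2.52, 1.70 to 3.74), followed by PGM1 (19.0 and 26.6 CPM) and UGP2 (105 and 131 CPM). The lowest ratios were those of HK2 (14.3 and 8.86 CPM), UAP1 (272 and 187 CPM) and GPI (51.0 and 36.3 CPM). UGDH, which makes UDP-glucuronic acid, stood at 77.5 and 85.0 CPM.

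Among degradation genes in HS-5 cells, none of 5 was called. The lowest was TMEM2, a cell surface hyaluronidase, at 32.6 CPM in monoculture and 20.1 CPM in coculture. The highest was HYAL2 at 13.2 and 18.9 CPM. Of the other receptors, HMMR, a hyaluronan receptor that is also a mitotic gene, stood at 180 and 121 CPM and LAYN at 85.0 and 78.2 CPM. Among binding partners PTX3, which binds TSG-6 in the hyaluronan matrix, stood at 82.9 and 49.2 CPM (ratio 0.593, 0.483 to 0.724). Of the proteases that cut versican or CD44, ADAMTS1 stood at 463 and 291 CPM and MMP14 at 374 and 247 CPM, the lowest ratios of 5 genes, and none was called. SPP1, which encodes the CD44 ligand osteopontin, was called higher in HS-5 cells at 6.35 and 45.9 CPM, but carried-over MM.1S RNA accounts for 43.2 CPM, and subtraction with the same rescaling left 2.79 CPM.

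In MM.1S cells 22 list genes reached 10 CPM, 4 were called higher and 1 lower, with a median log2 ratio of -0.09. HAPLN3, a link protein that ties hyaluronan to proteoglycans, stood at 7.38 CPM in monoculture and 70.0 CPM in coculture (93 coculture UMIs, ratio 9.49, 6.94 to 13.0), and at 67.6 CPM in the coculture cells with an HS-5 share under 0.02. HABP4 stood at 3.26 and 18.8 CPM. EZR, the ezrin gene whose product ties CD44 to actin, stood at 445 and 892 CPM, just past 2-fold, and at 747 CPM in the coculture cells with an HS-5 share under 0.02, which is under 2-fold. In the bins up to 0.05, 0.1 and 0.2 it stood at 949, 1075 and 1065 CPM. Carried-over HS-5 RNA accounts for 5.32 of the 892 CPM of EZR, and subtraction with the same rescaling left 903 CPM, a ratio of 2.03. Why EZR differed between the bins was not tested. SPP1 stood at 2397 and 5470 CPM in the 2 cultures. The gene called lower was HMMR, at 98.1 and 35.4 CPM, and the G2/M list summed to 1750 CPM in MM.1S monoculture and 1358 CPM in coculture. The other CD44 partners differed among themselves, with RDX at 63.4 and 98.7 CPM, MSN at 67.2 and 51.2 CPM and SRGN at 217 and 131 CPM. These calls stand beside 19.9% of all genes called higher and 6.19% called lower in MM.1S cells.

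The genes most like each member over the 4 groups of cells were found by the root mean square difference of log2 levels, centred per gene, among 4847 genes that reached 50 CPM in at least 1 group. For HAS2 these were KRTAP2-3, a keratin-associated protein gene of a multigene family, NEFM, a neurofilament gene, and CSF2, which encodes the cytokine GM-CSF. Their differences from HAS2 were 0.36, 0.39 and 0.41 log2 units. CSF2 stood at 192 CPM in HS-5 monoculture and 26.2 CPM in coculture, and NEFM at 71.6 and 30.2 CPM. For CD44 they were LRP11, KIF13A and GPAM, with differences of 0.06 to 0.12. For TNFAIP6 they were ALDH7A1, PTK2 and CA12, with CA12, a carbonic anhydrase gene, at 30.8 and 52.4 CPM in HS-5 cells. For VCAN they were UHRF1, NREP and GLRX3, and for HAS3, whose level rests on few UMIs, EIF5B, SLC1A5 and SPEN. With 4 points, this likeness is a description.

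In HS-5 cells CD44 RNA was detected alongside HAS2 about as often as without it in monoculture. With cells thinned to 500 UMIs, 94 of 392 cells with a HAS2 UMI also had a CD44 UMI (24.0%, 19.8 to 28.5%), against 794 of 3123 without one (25.4%, 23.9 to 27.0%). In coculture 5 of 58 cells with a HAS2 UMI had one (8.62%, 2.86 to 19.0%), against 425 of 1748 (24.3%, 22.3 to 26.4%), a difference that rests on 5 cells.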

How the data were processed

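Per the labels, the authors processed Drop-seq reads with Cell Ranger 3.0.2, UMI-tools 1.0.0, STAR 2.5.3a, featureCounts 1.6.4 and SAMtools 1.9 on GRCh38, and Seurat was used for their own analyses. The authors deposited raw whole-number UMI counts per gene and cell barcode for 3 libraries, 1 per condition. Annotation and strand setting are not given in the sources used here.

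Barcodes with 200 or more detected genes entered, and within-line doublets were not removed. Coculture cells were assigned to a line by genes of at least 50 CPM that differ 50-fold between monocultures, and cells with an HS-5 share of 0.2 to 0.8 were left out. UMIs were summed per line and culture and scaled to CPM; 3 UMIs are worth 0.288 to 2.26 CPM. Log2 ratios have a pseudocount of 1 CPM. Shares were computed after thinning to 500 UMIs, without shallower cells. The share of carried-over RNA came from genes specific to the partner line. Intervals are exact (95%). Coordinates come from GENCODE release 29, which holds 97.3% of the symbols, and promoters from RefSeq. Nothing was tested, since each condition is 1 library.

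The genes named are the 5 members, their paralog HAS1 and the antisense genes HAS2-AS1 and VCAN-AS1, the 3 genes most like each member, and up to 3 highest and 3 lowest ratios per list and line whose 2 levels average 10 CPM or more. UGDH, the marker genes and those under other observations fall outside this rule and were named after their values were seen. Some genes that this rule picks are left out of the text, so the named list genes are not all of its picks. Members and lists were chosen with earlier results of these data known. The steps were tested on simulated data. Python 3.11.15, numpy 2.4.6, scipy 1.17.1 and pandas 2.3.3 were used.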

Additional observations from a re-analysis of the deposited data

Results flagged for a closer look

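Opposite directions in the lines are given for 4 genes whose ratio interval excluded 1 in both lines, and the difference between lines was not tested. HAS2, HAS3, TNFAIP6 and VCAN did not meet this rule. For HAS3 the MM.1S interval excluded 1 (1.41 to 14.3, 6 coculture UMIs), but the HS-5 interval included it (0.160 to 1.45, 5 coculture UMIs). For HAS2 and VCAN the MM.1S interval included 1, with 2 and 6 coculture UMIs. TNFAIP6, with 1, had no MM.1S ratio interval. These counts are too few to decide the rule. The log2 ratio of CD44 was 1.61 in MM.1S and -0.09 in HS-5 cells, 1.70 apart, and the interval of the HS-5 ratio ends just under 1. The gap was 2.66 for HABP4 (2.22 in MM.1S, -0.45 in HS-5), 1.11 for GPI (0.63 and -0.48) and 0.99 for RDX (0.63 and -0.36). CD44 was not lower in cocultured HS-5 cells at each depth. Its HS-5 ratio was 1.09 (0.910 to 1.31) in cells of 200 to under 700 UMIs and 1.01 (0.909 to 1.12) from 700 to under 1500 UMIs. In deeper HS-5 cells, a range with no upper limit, it was 0.841 (0.766 to 0.922).

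The 108 mixed cells of the coculture entered no comparison. They held 40 CD44 UMIs, or 241.5 CPM (173 to 329), and 7 TNFAIP6 UMIs, or 42.3 CPM (17.0 to 87.1). HAS2 and VCAN had 3 UMIs each there and HAS3 had 1.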

How the results depend on the processing

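Of 136 ratios of the 5 genes under alternatives, 133 stayed within the counting interval of the reported value and 3 moved outside it. The sign changed in 4, 1 of CD44 in HS-5 cells and 3 of VCAN in MM.1S cells, whose interval includes 0: it ranged from -0.86 with at least 500 genes to 1.35 by the mean of per-cell CPM, with -0.50 in cells of at least 500 UMIs and -0.020 with the length decile median subtracted. HAS2 in HS-5 cells ranged from -2.63 to -2.15 on the log2 scale over 17 alternatives, with -2.63 without the top 1% of cells. TNFAIP6 in HS-5 cells ranged from 0.35 to 1.01 and VCAN from 0.57 to 0.90. The lowest TNFAIP6 and the highest VCAN value came with the length decile median subtracted. With the median of each length decile subtracted, CD44 in HS-5 cells was 0.025, on the other side of 0, and in MM.1S cells 1.09, and 987 genes were called higher in MM.1S cells; CD44 in MM.1S cells ranged from 1.09 to 1.83. Without shared barcodes, or with cells of an HS-5 share of 0.05 to 0.95 left out, both chosen after seeing the data, no ratio moved outside its interval. The log2 ratio of HS-5 over MM.1S for HAS2 was 5.98 with 200 to 2500 genes and under 5% mitochondrial UMIs, 6.39 by median-of-ratios scaling and 5.41 with a pseudocount of 5 CPM, and for CD44 4.25 and 4.23 under the latter 2.

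Genes called in HS-5 cells numbered 384 higher and 392 lower with 200 to 2500 genes and under 5% mitochondrial UMIs, 434 and 367 by the mean of per-cell CPM, 64 and 89 with a pseudocount of 5 CPM, 44 and 56 with a mean of 50 CPM, and 7324 and 12380 with no minimum. In MM.1S cells they numbered 518 and 157 with a mean of 50 CPM and 9368 and 16475 with no minimum. List genes called in HS-5 cells were 1 with a pseudocount of 5 CPM, 1 after free RNA was subtracted and 0 with a mean of 50 CPM, where 3 were called in MM.1S cells. At 1000 UMIs and without thinning, the share with a HAS2 UMI was 20.2% and 23.8% in HS-5 monoculture and 5.69% and 5.79% in coculture, and that with a CD44 UMI 2.02% and 6.03% in MM.1S monoculture and 6.35% and 6.09% in coculture. The cause of these moves was not tested, except that shares grow with depth. No paired analysis was possible because each condition has 1 library.

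Without the top 1% of cells no value was left for HAS3 in either line or for VCAN in MM.1S cells, and the ratios of HAS2 and TNFAIP6 in MM.1S cells, which rest on 2 and 1 coculture UMIs, were not recomputed. Depth limits HAS3 in both lines, and HAS2, TNFAIP6 and VCAN in MM.1S cells. In 1 library per condition, library and condition cannot be told apart.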

Other observations

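The list genes STAB1, TMEM2 and MMP14 lay under a mean of 10 CPM in the line given here and were picked after their values were seen. In MM.1S cells TMEM2 stood at 3.26 CPM in monoculture (34 UMIs) and 16.6 CPM in coculture (22 UMIs, each in another cell), and MMP14 at 1.15 CPM (12 UMIs) and 9.04 CPM (12 UMIs in 12 cells). In HS-5 cells STAB1, a scavenger receptor gene for hyaluronan, had 52 UMIs in monoculture, of which 43 lay in a single cell, and 1 in coculture.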
